A study of Mus musculus with 3 samples.

Results

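Megakaryocyte and platelet genes were followed in multipotent progenitors of Mef2c-deficient and control mice. The 10 genes were taken by name from the arrays' probe annotation: the chemokine genes Pf4 and Ppbp, the glycoprotein genes Gp1ba, Gp1bb, Gp5 and Gp9, Vwf, the platelet receptor gene Treml1, and the regulators Nfe2 and Zfpm1. They are represented by 12 of 41174 probes, 3 of them for Vwf. The arrays list Pf4 and Ppbp under the older names Cxcl4 and Cxcl7, and both were matched through their RefSeq accessions.

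Each of 3 two-colour arrays held cDNA of Mx1-cre+ Mef2cfl/fl cells, the mutant, in Cy3 and of Mef2cfl/fl cells, the control, in Cy5. Mice of both groups received 4 daily injections of 250 µg poly(I:C), which switches on Cre from the interferon-inducible Mx1 promoter, and marrow was taken 2 days after the last. From each sample 15000 cells that carried c-kit and Sca-1 but no lineage marker were sorted. The controls carried no Cre and no dye swap is given, so genotype, Cre and dye cannot be told apart. The labels do not say whether replicates were separate animals, so the p-values cover only a spread between arrays that may be technical.

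Megakaryocytes are the marrow cells that shed platelets. Their surface complex of glycoproteins Ib, IX and V binds von Willebrand factor at sites of vessel injury, and their alpha granules store Pf4, Ppbp and von Willebrand factor. Transcription of this programme depends on GATA and ETS factors together with Nfe2, and part of it is already active in stem cells that are primed towards platelets. Mef2c itself is known to act in megakaryocytes and platelet production as well as in lymphoid cells.

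No probe of the 10 genes passed the test of mutant against control. By limma, 0 of the 11 probes that could be tested had an adjusted p under 0.05, as did 0% of the 32909 probes tested. The count at an unadjusted p under 0.05 was also 0 of 11, where 9.14% of all probes reached it. Their log2 ratios of mutant over control had a median of -0.19, against -0.011 over all probes. The direction of array 2 is unsettled, as given below, and with that array turned these medians were -0.0075 and -0.015. For Pf4, Gp5, Gp9 and 1 Vwf probe the controls spread more widely than the mutants, and control 1 was the lowest of the 6 libraries. Fewer cells of a type and less RNA per cell cannot be told apart in such bulk samples.

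Levels below are log2 signals of single channels. The lowest level of any probe well above background lay between 6.62 and 7.17 in the 6 libraries, and the median level of the tested probes was near 10.01. Signed ratios follow the labels. Set against the scanner's Cy5 over Cy3 ratio across spots, the deposited ratio had r = -0.947 on array 1, 0.935 on array 2 and -0.939 on array 3. The direction of array 2 is therefore unsettled, so values with array 2 turned stand beside results that depend on it. Control library 1 stood apart in other genes: its mean log2 level was 15.04 for 14 immediate early genes, against 12.01 and 11.06 in controls 2 and 3 and 10.26 to 11.23 in the mutants. For 12 late neutrophil genes it was 12.18, against 9.81 and 9.98 in the other controls and 9.32 to 9.98 in the mutants. Mef2c was measured by 2 probes, with log2 ratios of 0.083, 0.10 and -0.96 for NM_025282 and a mean of 0.52 ± 0.48 (SD, n = 3) for the dim probe for AK044643. Neither checks the deletion because the labels do not give the floxed part.

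Among the granule genes, Pf4 (platelet factor 4, NM_019932), a chemokine that binds heparin, was well above background in every library. Its log2 level was 11.66, 11.70 and 11.47 in mutants 1, 2 and 3, and 10.85, 12.02 and 12.45 in controls 1, 2 and 3. The mutants lay close together and inside the range of the controls, of which control 1 was the lowest and control 3 the highest of all libraries. The log2 ratios on the 3 arrays were 0.82, -0.32 and -0.99, with a mean of -0.16 ± 0.91 (SD, n = 3) and an adjusted p of 0.891 by limma. The 95% interval of that mean ran from -1.10 to 0.77. Leaving out array 1 turned the mean to -0.65 and leaving out array 3 turned it to 0.25, while turning array 2 gave 0.050.

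Ppbp (pro-platelet basic protein, NM_023785), the neighbour of Pf4 on chromosome 5 and the gene of a precursor of platelet chemokines, was near background. The log2 level of Ppbp was 6.30, 6.12 and 8.57 in mutants 1, 2 and 3 and 5.97, 5.85 and 6.77 in the controls. Only mutant 3 was well above background, so the probe failed the filter and was not tested. The mean of all 3 mutants was 1.20-fold above the background limit of the controls. Mutants 1 and 2 were themselves not well above background, so this is no lower bound and rests on mutant 3. Pf4 in mutant 3, at 11.47, was the lowest of the mutants, so the 2 neighbours did not share this high value.

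The promoter windows of Pf4 and Gp9 are shown because Gp9 had the highest correlation of level with Pf4 among the other members, and those of Gp5 and Gp1ba because they hold the most GATA sites. They are from RefSeq (GRCm38.p6), 5′ to 3′ on the gene's strand, 250 bases before to 50 after the start. Pf4 lies at chr5:90772185-90772484 on the plus strand, Gp9 at chr6:87777820-87778119 on the plus strand, Gp5 at chr16:30310732-30311031 on the minus strand and Gp1ba at chr11:70638872-70639171 on the plus strand. Capitals mark GATA sites (the letters GATA with A or T before and A or G after them) and the ETS core GGAAG on either strand.
Pf4: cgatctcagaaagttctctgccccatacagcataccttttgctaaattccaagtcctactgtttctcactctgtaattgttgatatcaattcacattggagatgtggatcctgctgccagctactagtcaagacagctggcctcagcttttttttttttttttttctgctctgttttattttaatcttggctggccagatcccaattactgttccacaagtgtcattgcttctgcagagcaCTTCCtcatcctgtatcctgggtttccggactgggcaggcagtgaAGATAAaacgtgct
Gp9: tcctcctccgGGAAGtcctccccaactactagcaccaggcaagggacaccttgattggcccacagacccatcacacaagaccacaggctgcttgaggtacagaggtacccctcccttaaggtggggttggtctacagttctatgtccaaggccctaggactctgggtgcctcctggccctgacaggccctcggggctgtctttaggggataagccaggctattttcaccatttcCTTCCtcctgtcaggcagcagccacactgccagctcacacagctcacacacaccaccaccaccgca
Gp5: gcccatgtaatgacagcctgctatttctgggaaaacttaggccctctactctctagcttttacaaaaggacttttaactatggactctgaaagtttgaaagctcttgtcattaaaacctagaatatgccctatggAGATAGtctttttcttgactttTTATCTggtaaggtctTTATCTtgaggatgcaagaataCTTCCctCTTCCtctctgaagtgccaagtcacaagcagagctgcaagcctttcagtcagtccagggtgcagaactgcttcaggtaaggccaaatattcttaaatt
Gp1ba: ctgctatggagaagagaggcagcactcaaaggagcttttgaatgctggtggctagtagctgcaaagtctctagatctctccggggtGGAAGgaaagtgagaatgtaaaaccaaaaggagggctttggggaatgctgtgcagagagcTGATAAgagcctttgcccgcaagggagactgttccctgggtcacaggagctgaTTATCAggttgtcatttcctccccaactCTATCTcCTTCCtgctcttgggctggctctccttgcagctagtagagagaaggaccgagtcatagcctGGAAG

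Windows of 8 of the 10 genes were matched by symbol. A GATA site was found in 4 of these 8 (Pf4, Gp1ba, Gp1bb and Gp5) and in 29.8% of 32851 promoter windows of the same length. Gp1ba and Gp5 held 3 each. The ETS core, a short and common motif, was in 8 of 8 and in 71.4% of all windows. Both motifs occurred together in 4 of 8 and in 20.3% of all windows. The NF-E2 core TGACTCA was in 0 of 8 against 5.2% of all windows, and the MEF2 consensus in 0 of 8 against 3.19%. In the windows of the 8 genes 0 GATA sites overlapped an ETS core, although the letters allow it. A match here is a description of the sequence and not a site of binding.

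Vwf encodes von Willebrand factor, the adhesive protein that megakaryocytes and endothelial cells store and release. Its 3 probes did not behave alike. The probe for NM_011708 had log2 levels of 10.98, 10.53 and 11.86 in the mutants and 9.70, 10.71 and 12.39 in the controls. Library 3 was thus the highest of its group in both genotypes, and control 1 was again the lowest of all 6 libraries. The log2 ratios were 1.28, -0.18 and -0.53, with a mean of 0.19 ± 0.96 (SD, n = 3; adjusted p = 0.875 by limma) that was -0.35 without array 1.

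The probe for DQ355288 starts 693 bases higher in the arrays' own coordinates, whose build is not named. Its log2 level was 11.26, 11.38 and 11.56 in the mutants and 11.29, 11.79 and 11.97 in the controls. These 6 values span a much narrower range than those of the first probe, and the groups overlap only through control 1. The log2 ratios were -0.029, -0.41 and -0.40 and averaged -0.28 ± 0.22 (SD, n = 3; adjusted p = 0.676 by limma). The probe for AK044921, which starts 81290 bases lower than that for NM_011708, was dim. Only 1 mutant library exceeded background clearly, against 3 control libraries, at log2 levels of 7.20 to 7.76 in the mutants and 7.53 to 7.78 in the controls, with a mean ratio of -0.19 ± 0.37. The mean over the 3 probes gave Vwf a log2 ratio of -0.093.

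**Figure D1:**
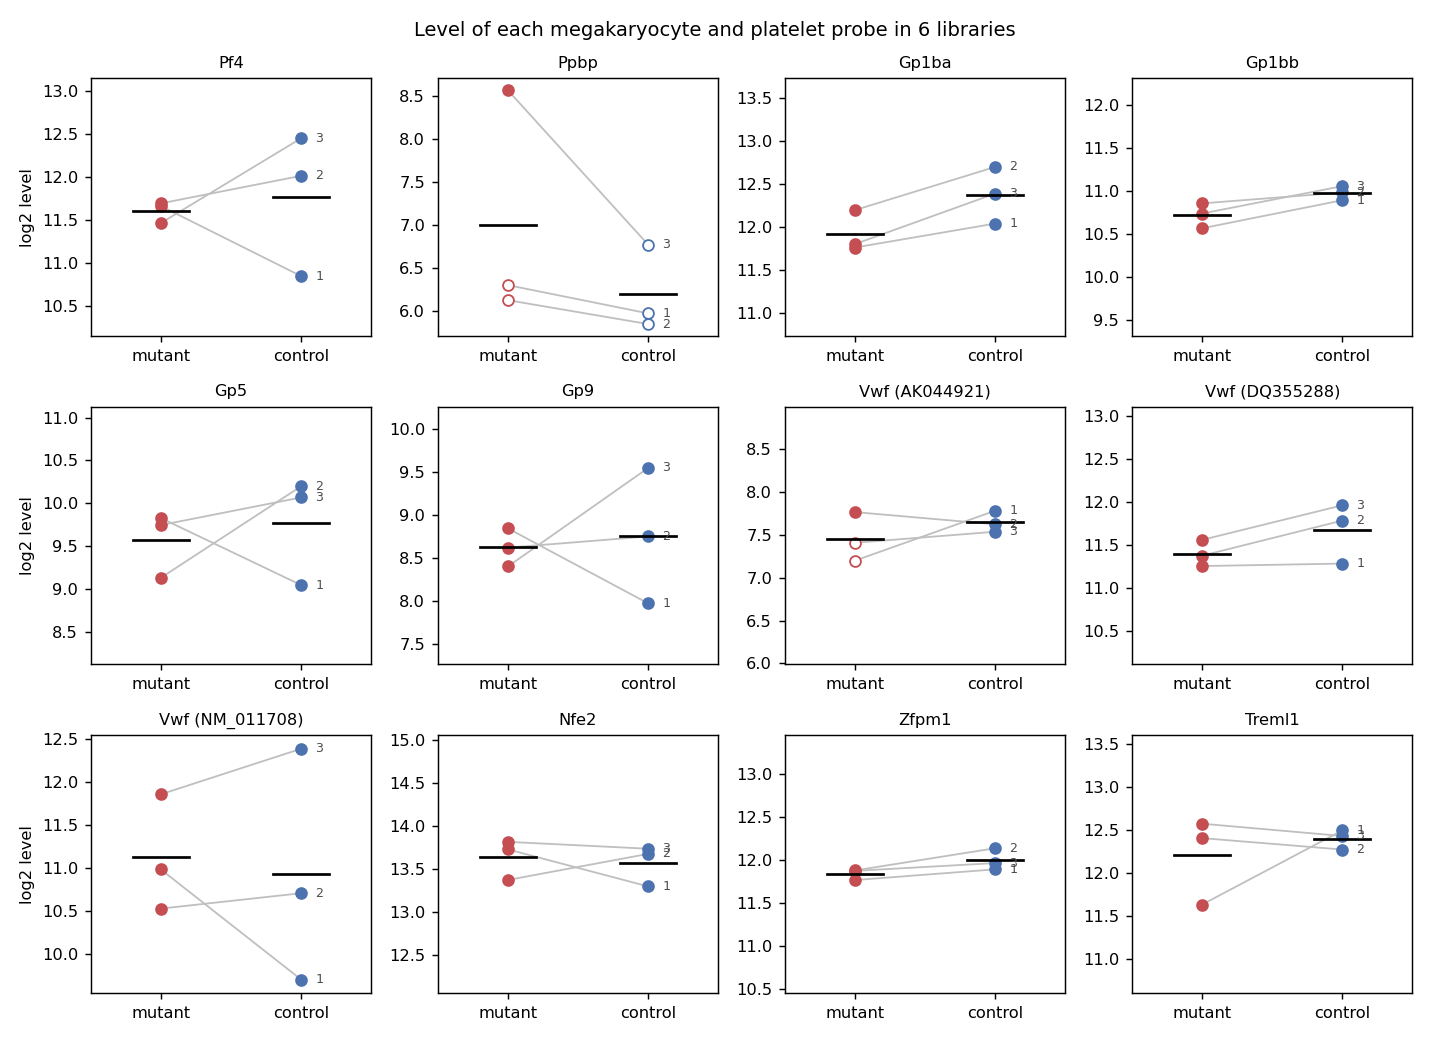
Log2 level (vertical axis, with its own range in each panel) of each of the 12 probes in the 3 mutant (red) and 3 control (blue) libraries. Grey lines join the 2 libraries of an array, numbers give the array, black bars are group means and open circles are values not well above background. Control 1 is the lowest of the 6 libraries for Pf4, Gp5, Gp9, Nfe2 and the Vwf probe for NM_011708, whereas Gp1bb and Zfpm1 have all 3 mutants below all 3 controls by narrow margins as labelled, and in neither with the libraries of array 2 exchanged.

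The receptor for von Willebrand factor is built from the products of Gp1ba, Gp1bb and Gp9, to which that of Gp5 is loosely bound. Gp1ba (NM_010326) encodes the chain that holds the binding site for von Willebrand factor. Log2 levels of its transcript were 11.76, 12.20 and 11.80 in the mutants and 12.04, 12.70 and 12.39 in the controls. In each pair the mutant lay below the control of its array, although mutant 2 lay above control 1. The log2 ratios were -0.28, -0.50 and -0.59 and the mean of -0.46 ± 0.16 (SD, n = 3) was the lowest of the 11 tested probes, which is 1.37-fold lower in the mutant. With array 2 turned it was -0.12 and no longer the lowest, since Treml1 and the Vwf probe for AK044921 were then at -0.28 and Gp1bb at -0.17. Its adjusted p was 0.565 by limma, and the 95% interval ran from -0.995 to 0.082.

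Gp1bb (NM_001001999) encodes the smaller chain that is joined to Gp1ba's product by disulphide bonds. Levels of Gp1bb were, in log2, 10.56, 10.85 and 10.74 in the mutants and 10.89, 10.98 and 11.06 in the controls. The groups did not overlap, but the highest mutant and the lowest control were nearly level. Ratios of -0.33, -0.13 and -0.32 on the log2 scale gave a mean of -0.26 ± 0.11 (SD, n = 3; adjusted p = 0.687 by limma). Septin5 is the next protein-coding gene beside Gp1bb, and human transcripts are known that run from one into the other. The probe for Septin5 had ratios of 0.67, 0.038 and -0.94, which do not follow those of Gp1bb.

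Gp9 (NM_018762) encodes the subunit that stabilises the complex at the cell surface. Its log2 level was 8.85, 8.62 and 8.40 in mutants 1, 2 and 3 and 7.97, 8.75 and 9.55 in the controls. As for Pf4, the mutants lay inside the range of the controls, with control 1 lowest and control 3 highest. On the 3 arrays the log2 ratios were 0.87, -0.13 and -1.15, with a mean of -0.13 ± 1.01 (SD, n = 3; adjusted p = 0.919 by limma). The mean was -0.64 without array 1 and 0.37 without array 3.

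Gp5 (NM_008148), which encodes the subunit cleaved by thrombin, had log2 levels of 9.83, 9.13 and 9.75 in the mutants and 9.05, 10.20 and 10.07 in the controls. Control 1 and mutant 2 were low, and the other libraries lay between 9.75 and 10.20. The log2 ratios were 0.78, -1.07 and -0.32, with a mean of -0.20 ± 0.93 (SD, n = 3; adjusted p = 0.862 by limma). The mean was -0.69 without array 1, 0.23 without array 2 and 0.51 with array 2 turned.

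Treml1 (NM_027763) encodes TLT-1, a receptor that platelets hold in their granules until they are activated. Log2 levels of Treml1 were 11.63, 12.40 and 12.57 in the mutants and 12.49, 12.27 and 12.43 in the controls. Here mutant 1 was the low library and the 5 others lay within 12.27 and 12.57, unlike Pf4, Gp9 and Gp5, for which control 1 was low. The ratios of -0.86, 0.13 and 0.14 had a mean of -0.20 ± 0.58 (SD, n = 3; adjusted p = 0.819 by limma), which was 0.14 without array 1.

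Of the regulators, Nfe2 (NM_008685) encodes the large subunit of NF-E2, which drives the last steps of platelet formation and also acts in red cell precursors. Its log2 level was 13.73, 13.37 and 13.82 in the mutants and 13.30, 13.68 and 13.74 in the controls. The groups overlapped over nearly their whole range. Its mean log2 ratio was 0.069 ± 0.37 (SD, n = 3; adjusted p = 0.933 by limma), with 0.43, -0.30 and 0.080 on the arrays and -0.11 without array 1.

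Zfpm1 (NM_009569) encodes FOG-1, the cofactor that GATA1 and GATA2 need in megakaryocytes and red cells. The log2 level of Zfpm1 was 11.77, 11.88 and 11.88 in the mutants and 11.90, 12.14 and 11.97 in the controls. It had the narrowest spread among the mutants of the 12 probes, and its groups did not overlap. The log2 ratios were -0.12, -0.26 and -0.091, with a mean of -0.16 ± 0.089 (SD, n = 3; adjusted p = 0.803 by limma), and 0.014 with array 2 turned.

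**Figure D2:**
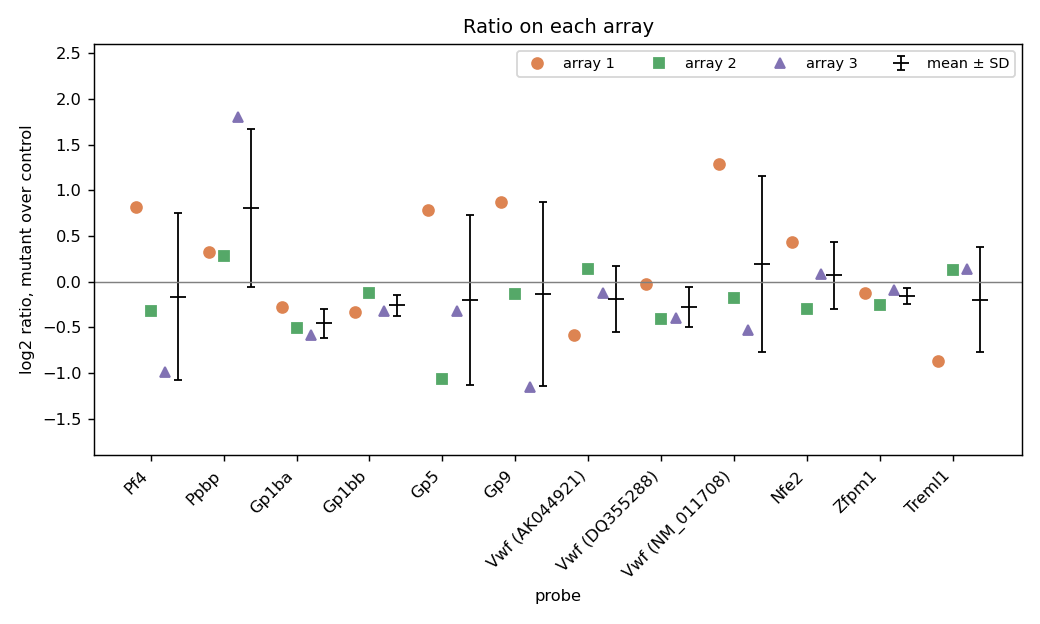
Log2 ratio of mutant over control (vertical axis) for each of the 12 probes on arrays 1, 2 and 3, with the mean and SD over the 3 arrays in black. Gp1ba, Gp1bb, Zfpm1 and the Vwf probe for DQ355288 lie below 0 on all 3 arrays as labelled, and Pf4, Gp5, Gp9 and the Vwf probe for NM_011708 lie above 0 on array 1 only.

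Across the 11 tested probes, 4 lay below 0 on all 3 arrays (Gp1ba, Gp1bb, Zfpm1 and Vwf for DQ355288), against 18.0% of all probes, and 0 lay above 0 on all 3, against 16.0%. With the scanner's processed signals the first count was 3, with median centring it was 4 against 27.2% of all probes, and with array 2 turned both counts were 1, against 10.6% of all probes below 0 and 10.5% above. In 2 of 11 probes, Gp1bb and Zfpm1, the mutant levels all lay below the control levels, against 9.90% of all probes, and in 0 they all lay above, against 7.52%. With the libraries of array 2 exchanged, both counts were 0 of 11, against 4.31% and 4.1%. On arrays 2 and 3 both, 8 of 11 lay below 0, against 26.0%, and with array 2 turned 1 of 11 did, against 25.1%. The pattern of the remaining 4, above 0 on array 1 and below 0 on arrays 2 and 3, was seen in 7.99% of all probes. With array 2 turned it was seen in 0 of 11 and in 14.6% of all probes. These patterns were chosen after the values were seen. The median ratio of the 11 probes, -0.19, was -0.0075 with array 2 turned and -0.35 without array 1. The turned mean was -0.048 for Gp9, 0.27 for Nfe2, and 0.31 and -0.0075 for the Vwf probes for NM_011708 and DQ355288.

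Set against the libraries labelled controls 2 and 3, control 1 differed by -1.39 for Pf4, -1.18 for Gp9, -1.09 for Gp5 and -1.85 for the Vwf probe for NM_011708 on the log2 scale. Over all tested probes the median of this difference was 0.011, with a 5th percentile of -1.06. A difference at least as low was found in 2.50% of all probes for Pf4, 3.90% for Gp9 and 4.73% for Gp5. With the libraries of array 2 exchanged, the difference was -1.23 for Pf4, -1.11 for Gp9, -0.55 for Gp5 and -1.76 for that Vwf probe, with 4.62%, 5.86%, 18.7% and 1.44% of all probes at least as low. The differences were smaller for Vwf's DQ355288 probe (-0.59), Gp1ba (-0.50) and Nfe2 (-0.41), while Zfpm1 (-0.16), Gp1bb (-0.13) and Treml1 (0.14) were near the other controls. In 5 of the 11 tested probes control 1 was the lowest of the 6 libraries, against 20.7% of all probes. In the same library the neutrophil gene Ngp was at 14.52, against 10.30 and 9.83 in controls 2 and 3, S100a9 at 14.67 against 11.84 and 11.74, and Ltf at 13.50 against 8.61 and 8.43. The 2 brightest neutrophil genes, Cxcr2 and Mmp8, had ratios of -0.38 and -1.67 on array 1, and the 2 brightest immediate early genes, Junb and Zfp36, had -1.58 and -5.32. In Cxcr2 control 1 did not stand apart, at 12.18 against 11.87 and 12.50. The part of the neutrophil and immediate early genes in the low values of Pf4, Gp9 and Gp5 in that library was not tested.

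**Figure D3:**
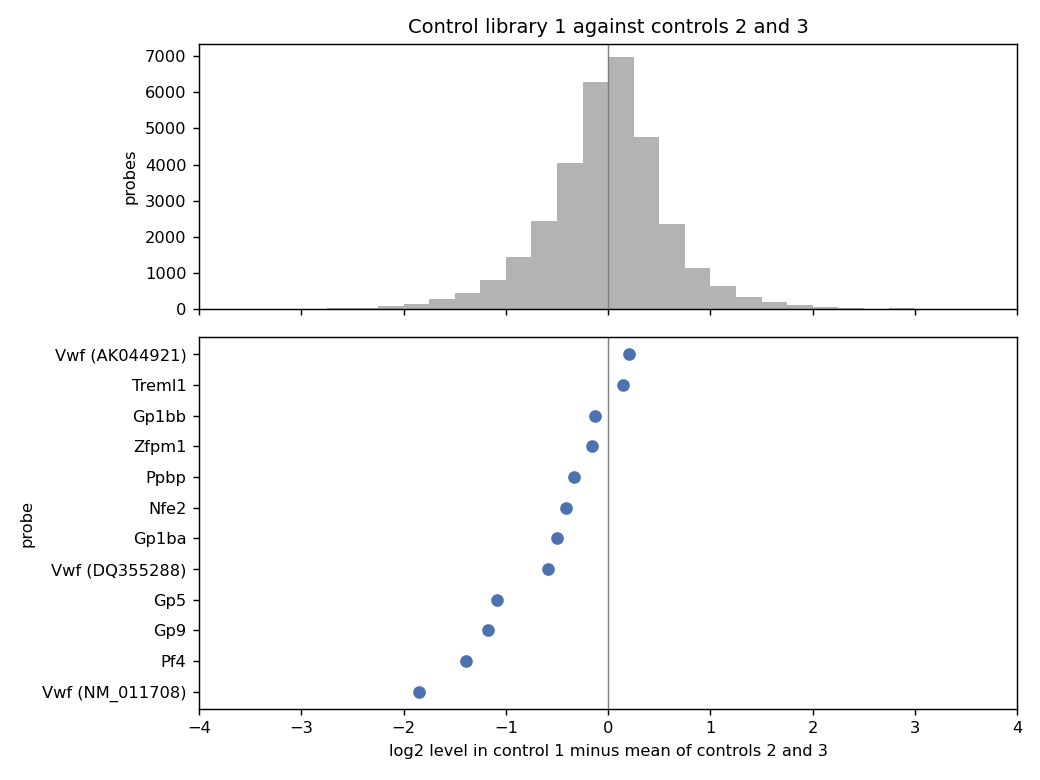
The upper panel counts tested probes by the log2 level in control 1 minus the mean of controls 2 and 3, and the lower panel places the 12 megakaryocyte and platelet probes on the same horizontal axis. All probes centre near 0.011, while Pf4, Gp9, Gp5 and Vwf for NM_011708 lie below -1.06, the 5th percentile of all probes.

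Pearson's r with Pf4 over the 6 libraries was 0.952 for Gp9, 0.802 and 0.717 for the Vwf probes for DQ355288 and NM_011708 and 0.758 for Gp5. It was -0.13 for Treml1. These 6 points share 3 arrays, 1 slide and the dye of each group, so r is a description. Among 7965 genes well above background in every library with a range of at least 1, the 5 with the highest r were Cysltr2 (0.983), Sult6b1 (0.978), Rnf180 (0.976), Pcdhb16 (0.973) and Cd180 (0.973). Cysltr2, a leukotriene receptor gene, had log2 levels of 8.65, 8.70 and 8.46 in the mutants and 8.05, 9.03 and 9.14 in the controls. In Cd180, which encodes a receptor of B cells and myeloid cells, control 1 was at 8.18 and control 3 at 10.63.

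Other genes of the megakaryocyte pathway were taken from 3 lists with 64 genes, of which 63 were measured. None of the 63 passed limma at an adjusted p of 0.05, as for 0% of all probes. The unadjusted p was under 0.05 for 8 of them, of which 3 lay above 0 and 5 below, beside 4.93% and 4.21% of all probes. Their median log2 ratio was -0.25, beside -0.011 over all probes. Of the 63 genes 44 lay below 0 and 19 above. For this split and those of the single lists, the share over all probes was not counted. On all 3 arrays 22 lay below 0 and 6 above, beside 18.0% and 16.0% of all probes. With array 2 turned the median was -0.061, 36 lay below 0 and 27 above, and 6 lay below 0 and 6 above on all 3 arrays.

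Of 15 regulators, 13 lay below 0, with a median of -0.29. With array 2 turned 10 lay below 0 and 5 above, with a median of -0.11. Gata1, the GATA factor of megakaryocytes and red cells, was among the 2 above 0 as labelled. Its log2 ratios were 0.69, 0.51 and 0.019, with a mean of 0.40 ± 0.35 (SD, n = 3). That mean was 0.064 with array 2 turned. Lmo2, which bridges GATA and SCL factors, had -1.26, -0.31 and -0.89, with a mean of -0.82 ± 0.48. As labelled, all 3 mutants, at log2 levels of 14.18 to 14.89, lay below the controls, at 15.19 to 15.44. Lmo2 had a mean of -0.61 with array 2 turned, and its groups overlapped with the libraries of array 2 exchanged. Its partner Tal1, which encodes SCL, had -0.50, -0.96 and -0.28 with a mean of -0.58 ± 0.35, and 0.060 with array 2 turned. The ETS factor gene Fli1 had a mean of -0.36 ± 0.55 and Runx1 one of -0.29 ± 0.45, and neither ran the same way on all 3 arrays. The adjusted p of these regulators was at least 0.544 by limma.

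Of 24 receptor and signalling genes, 19 lay below 0, with a median of -0.30. With array 2 turned 13 lay below 0 and 11 above, with a median of -0.016. Itga2b and Itgb3 encode the 2 chains of the fibrinogen receptor. Itga2b had log2 ratios of -0.16, -0.25 and -0.56, and Itgb3 had -1.29, -0.12 and -0.032, so most of the Itgb3 difference was on array 1. Its mean was -0.48 ± 0.70 with array 1 and -0.076 without it, and -0.085 as the mean of its probes. Tbxa2r, the thromboxane receptor gene, had -1.28, -1.20 and -0.79, with mutants at log2 levels of 10.60 to 11.17 and controls at 11.80 to 11.96 as labelled. The mean was -1.09 ± 0.27 (SD, n = 3; adjusted p = 0.544 by limma), and -0.29 with array 2 turned. The calcium channel gene Trpc6 had a mean of -0.78 ± 0.57, and 0.18 with array 2 turned, and the prostaglandin receptor gene Ptger3 had 0.92 ± 0.44, and 0.040 with array 2 turned. Itga2b was at -0.15 with array 2 turned.

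Of 24 measured genes for granule contents, cytoskeleton and enzymes, 12 lay above and 12 below 0, with a median of -0.021. With array 2 turned 11 lay above and 13 below 0, with a median of -0.13. Plek encodes pleckstrin, a substrate of protein kinase C in platelets that other blood cells also make. Its log2 ratios were -1.13, -0.75 and -1.30, with a mean of -1.06 ± 0.28 (SD, n = 3). As labelled, its mutants, at 12.61 to 12.99, lay below its controls, at 13.63 to 14.12. With the libraries of array 2 exchanged its groups overlapped. Nbeal2, which alpha granules need to form, had -1.12, -0.57 and -0.66, with a mean of -0.79 ± 0.30. On the high side, the protease inhibitor gene Serpine2 had a mean of 0.81 ± 0.19 and F13a1, the coagulation factor XIII gene that monocytes also express, 1.0 ± 0.57. With array 2 turned the means were -0.56 for Plek, -0.40 for Nbeal2, 0.13 for Serpine2 and 0.30 for F13a1. For each of these 4 genes the adjusted p was 0.544 by limma, the smallest over all probes.

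**Figure D4:**
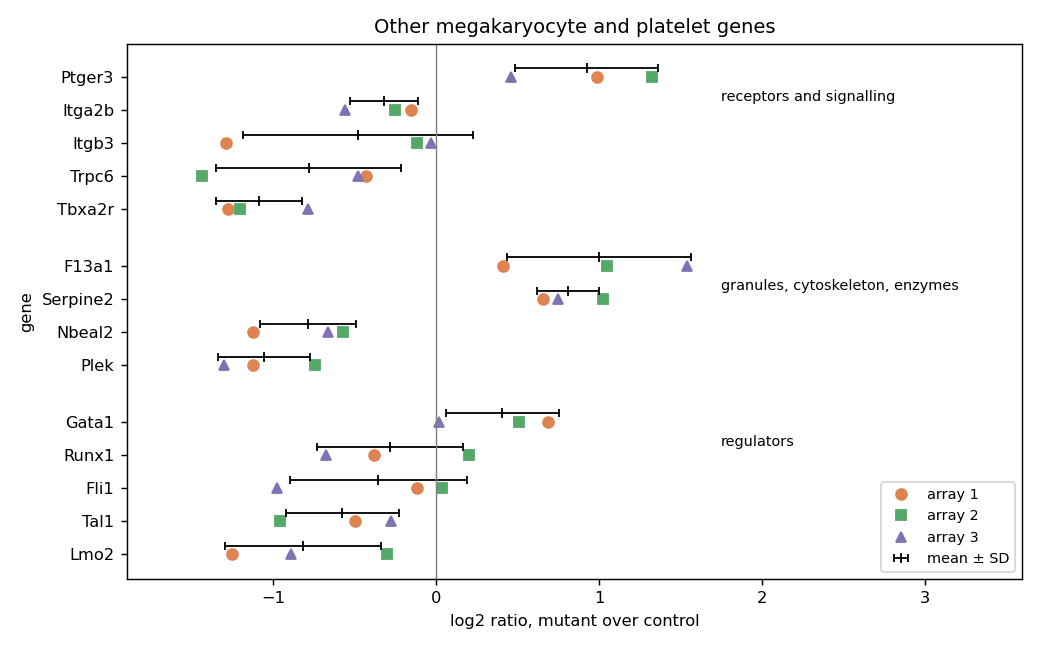
Log2 ratio of mutant over control (horizontal axis) on arrays 1, 2 and 3 for 14 genes of the 3 other lists, with the mean and SD over arrays in black. Tbxa2r, Plek and Nbeal2 lie below 0 and Serpine2, F13a1 and Ptger3 above 0 on all 3 arrays as labelled, and no gene passed the test.

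Markers of cells that share these genes were read beside them. Of 17 erythroid genes 16 were measured, with median log2 ratios of 0.77, -0.50 and -0.27 on arrays 1, 2 and 3, the order of signs seen for Pf4, Gp5 and Gp9. Their mean log2 level was 11.02, 10.16 and 10.39 in mutants 1, 2 and 3 and 10.42, 10.64 and 10.57 in the controls. The defining genes Hba-a1 and Slc4a1 did not follow this order. As labelled they lay below 0 on all 3 arrays, at -1.94, -2.55 and -0.54 and at -2.32, -0.93 and -0.72. With array 2 turned neither gene lay below 0 on all 3. Signs on that array then reverse for the erythroid medians and for Pf4, Gp5 and Gp9 alike. Probes may not separate Hba-a1 from its near-identical copy. Mean ratios over the 16 genes ran from -1.68 to 0.97, and the 2 brightest, Car2 and Tfrc, had -1.09 ± 0.81 and 0.11 ± 0.24. The part of red cell precursors in the platelet gene values was not tested.

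Endothelial cells also make von Willebrand factor. Of 13 endothelial genes 12 were measured, at mean log2 levels of 9.40 to 9.74 in the mutants and 9.65 to 9.93 in the controls. Of the defining genes, Kdr did not pass the filter and Cdh5 cleared background in only 3 libraries, 1 of them mutant. Tie1, which stem cells also express, was well above background in all 6. The median ratio of the 12 genes was -0.19, -0.12 and -0.16 on arrays 1, 2 and 3 as labelled. With array 2 turned its median has the opposite sign. As labelled, 2 of the 12 genes, Tek and Plvap, lay above 0 on all 3 arrays and 3 lay below, beside 16.0% and 18.0% of all probes. The 2 brightest, Pecam1 and Egfl7, had mean ratios of -0.29 ± 0.11 and -0.88 ± 0.65.

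Stem cell genes, of which 17 were measured, had median log2 ratios of 0.13, -0.077 and -0.40 on the 3 arrays. Their mean level was 10.20 in control 1 and 10.62 and 10.58 in controls 2 and 3, against 10.27 to 10.30 in the mutants. Of the defining genes, Procr had -1.99, -2.19 and -0.53, Hlf -1.52, -1.72 and -0.40, and Slamf1 1.003, 2.28 and 0.20. These defining genes did not share the signs of Pf4, whereas the medians of the list did. So did Fgd5, Gfi1b and Mycn among the 17 genes. Meis1, the brightest of the 17, had a mean ratio of -0.57 ± 0.45. Of 9 measured genes behind the sort or tied to it, 8 had a mean below 0 as labelled, a share not counted over all probes. An unadjusted p under 0.05 by limma was found for 3, beside 9.14% of all probes, each with an adjusted p of 0.544. These 3, named after their values were seen, ran 1 way on all arrays as labelled, but not with array 2 turned. Flt3, a receptor gene of progenitors, had -1.02, -1.26 and -1.19, Itgam -1.28, -1.05 and -0.83, and Ly6a 0.93, 0.51 and 1.02. Of the others, Cd34 had a mean ratio of -0.29 ± 0.41 and Kit was at log2 levels of 12.06 to 13.07. Ly6a, the Sca-1 gene, was at 13.77 to 15.01. The part of these differences in the values of the 10 genes was not tested. Cd3e and Itgam, markers of cells the sort was meant to remove, were also well above background in all 6 libraries, at 7.92 to 8.33 and 10.50 to 12.11.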

How the data were processed

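Gene expression was measured on 3 two-colour Agilent arrays on 1 slide, each with 1 mutant and 1 control sample amplified by global PCR of cDNA, per the labels' protocols. Per the file headers, Agilent Feature Extraction 9.5.1.1 turned the authors' scans into an intensity per spot and channel, a processed signal and a log10 ratio of red over green. The series' deposited value table gives 1 log2 ratio a spot. The submitters' processing notes name limma for it, and how it was normalized was not given in the sources used here.

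Background was corrected with normexp (offset 50) and loess was fitted within each array with zero weight on control spots. Flagged outlier spots were left out (300, 331 and 252). Levels were also normalized between arrays (Aquantile). Probes well above background in 1 channel on at least 2 arrays were kept, 32909 of 41174. The mean log2 ratio was tested by limma 3.58.1 (lmFit and eBayes, R 4.3.3), with Benjamini-Hochberg adjustment over all of them, and the procedure was tested on simulated data. This was fitted per probe, since Vwf has 3. List genes used their brightest kept probe. Named genes were all 10 members, 6 preset pathway genes, in each of the 3 pathway lists up to 2 genes per direction that ran the same way on all 3 arrays by smallest p, the defining and 2 brightest markers of each marker list, and the 5 genes most like Pf4. Some of these are not reported here. Members and lists were chosen with earlier results of these data known.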

Additional observations from a re-analysis of the deposited data

How the results depend on the processing

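Alternatives were no background correction, the scanner's processed signals, median centring, no filter or a stricter one, flagged spots kept and the deposited ratios. The deposited ratios were used with array 2 set to the labelled direction, so they do not check that direction. Further alternatives were array 2 turned, levels compared without the pairing on arrays, 1 probe or the mean of probes per gene, and each array left out. Under each alternative that applied, 0 of all probes had an adjusted p under 0.05 by limma. The same held for the 10 genes' probes and for the other pathway genes. With the processing described above, 3007 probes had an unadjusted p under 0.05 by limma. That last count was 1106 with array 2 turned and 1613 without array 1. Median centring moved the median of all probes to -0.15 and that of the 11 tested probes to -0.29, and changed the split at an unadjusted p under 0.05 from 1623 higher and 1384 lower to 801 and 2743.

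Directions of small ratios depended on the setting. With array 2 turned, Pf4 was at 0.050, Gp5 at 0.51, Zfpm1 at 0.014, Tal1 at 0.060 and Trpc6 at 0.18. Median centring put Nfe2 at -0.016. The mean of a gene's probes put Vwf at -0.093 and Fli1 at 0.048. Leaving out 1 array gave ranges of -0.65 to 0.25 for Pf4, -0.69 to 0.23 for Gp5, -0.64 to 0.37 for Gp9, -0.36 to 0.0067 for the Vwf probe for AK044921, -0.35 to 0.55 for that for NM_011708, -0.11 to 0.26 for Nfe2 and -0.37 to 0.14 for Treml1. The exchange of the libraries of array 2 for levels and for control 1 was chosen after seeing the data. The cause was not tested. The stricter filter left no value for the Vwf probe for AK044921. With 3 arrays the precision is limited by their number.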
